A study of Homo sapiens with 96 samples.

Results

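The collagen genes and a set of mesenchymal matrix genes were followed through neural differentiation and through exposure to 5 compounds in neural cells grown from the established human embryonic stem cell line H9. The members are the protein-coding rows whose symbol is that of a collagen chain (COL, a number, A, a number), together with FN1, POSTN, LUM, DCN, BGN, SPARC, THBS1, THBS2, FBN1, FBN2, TAGLN and ACTA2. This gave 56 members, 44 of them collagen genes and 12 others, of 58434 rows in the table and of 19879 protein-coding rows.

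Collagens are secreted proteins in which chains wind around each other into a rope-like helix. Fibrillar collagens form the tensile fibres of connective tissue, network-forming collagen IV is the scaffold of basement membranes, and other families sit on fibrils, form beaded filaments or span the cell membrane. Glycoproteins such as fibronectin and the fibrillins, and small leucine-rich proteoglycans such as decorin, organise these fibres, while smooth muscle actin and transgelin belong to the contractile apparatus of myofibroblasts, pericytes and smooth muscle. In the brain most fibrillar collagen is made by meningeal and perivascular fibroblasts, and neural progenitors and glia make basement membrane and fibronectin-type matrix.

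Polyadenylated RNA was sequenced from 96 libraries in 12 groups of 8. The exposed groups were day 10 neuron and astrocyte co-cultures given acrylamide (a neurotoxic vinyl monomer), chlorpyrifos (an organophosphate insecticide), fluoxetine (a serotonin reuptake inhibitor), methyl mercury (an organic mercury compound) or valproic acid (an antiepileptic drug that inhibits histone deacetylases), each at 2 concentrations named IC5 and IC20/100. The reference for exposure was the unexposed day 10 co-culture (control), and the starting population was neural progenitor cells (NPC) on day 0, also unexposed. IC5 stands for the concentration of 5% inhibition, and IC20/100 for the concentration of 20% inhibition diluted 100-fold, so IC20/100 is not an undiluted IC20. Neither molar concentrations nor how long the cells were exposed could be taken from the labels. The 8 libraries of a group were technical replicates of 1 experiment with 1 cell line, so p-values measure only the spread between libraries of that experiment. Day 10 medium differed from NPC medium and held ascorbic acid, a cofactor of collagen hydroxylation, and laminin, which also coated the plates. Chlorpyrifos, fluoxetine and methyl mercury were dissolved in dimethyl sulfoxide (DMSO, 0.25% of the final medium) and the other compounds in medium. The labels do not say whether control medium held DMSO, so compound and vehicle cannot be told apart where these 3 compounds are set against control.

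Recovered reads ranged from 9.49 M to 29.63 M reads per library (median 18.94 M). The library of methyl mercury IC20/100 replicate 8 stood apart, with a deposited total of 20.95 M against 18.11 M to 18.99 M in the other day 10 libraries, and results that rest on it are also given without it. Values are the authors' normalized counts, that is gene counts divided by 1 size factor per library. Differences are on the scale of log2(normalized count + 2), which understates the change of genes near the pseudocount of 2, and "called" means an adjusted p under 0.05 in limma (Benjamini-Hochberg, over every gene of the fit). Of the markers of the labelled cell types, the 10 neuron genes summed to 94073 to 100080 normalized counts in control libraries and 69703 to 75412 in NPC libraries. The 8 astrocyte genes summed to 4478 to 5750 in control libraries and 3871 to 5598 in NPC libraries, which overlap. Of these genes, 2 were called higher and 3 lower in control, beside 70.7% of all genes called either way. GFAP, the defining intermediate filament of mature astrocytes, averaged 25.7 ± 14.6 in control and 9.70 ± 10.2 in NPC (SD, n = 8 each).

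Promoter windows are shown for 5 members on which the comparisons below turn: COL11A1 and COL6A2 (higher with valproic acid), THBS1 and FN1 (higher with acrylamide and lower in control than in NPC) and COL4A2, whose start lies 127 bp from that of COL4A1 on the other strand. Each window runs from 250 bases before to 50 after a gene start in RefSeq (GRCh38.p14), 5′ to 3′ on the gene's strand, and capitals mark matches, on either strand, to the GC box GGGCGG, the CCAAT box, the TATA box TATAAA, the AP-1 element TGANTCA, the SMAD box CAGAC and the hypoxia elements ACGTG and GCGTG. Overlapping or adjoining matches run together as 1 block of capitals.
COL11A1 chr1:103108473-103108772 (minus strand): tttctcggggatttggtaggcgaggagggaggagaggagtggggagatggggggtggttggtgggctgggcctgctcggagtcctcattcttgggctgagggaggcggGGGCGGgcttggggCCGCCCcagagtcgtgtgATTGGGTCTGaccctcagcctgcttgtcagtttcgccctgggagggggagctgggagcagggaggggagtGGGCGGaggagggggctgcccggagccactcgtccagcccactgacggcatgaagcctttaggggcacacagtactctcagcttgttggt
COL6A2 chr21:46097862-46098161 (plus strand): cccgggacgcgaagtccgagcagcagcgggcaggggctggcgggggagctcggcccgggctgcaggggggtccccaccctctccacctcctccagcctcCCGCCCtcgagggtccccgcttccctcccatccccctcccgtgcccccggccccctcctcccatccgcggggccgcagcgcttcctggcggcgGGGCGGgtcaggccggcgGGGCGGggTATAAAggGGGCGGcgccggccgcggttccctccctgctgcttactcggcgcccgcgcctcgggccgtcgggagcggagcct
THBS1 chr15:39580829-39581128 (plus strand): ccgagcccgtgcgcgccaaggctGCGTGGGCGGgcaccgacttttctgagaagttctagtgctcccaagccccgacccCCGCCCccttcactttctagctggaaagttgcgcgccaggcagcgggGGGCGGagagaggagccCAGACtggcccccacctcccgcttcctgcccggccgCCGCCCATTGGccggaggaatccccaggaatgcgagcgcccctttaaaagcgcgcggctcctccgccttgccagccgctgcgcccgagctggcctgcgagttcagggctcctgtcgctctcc
FN1 chr2:215436019-215436318 (minus strand): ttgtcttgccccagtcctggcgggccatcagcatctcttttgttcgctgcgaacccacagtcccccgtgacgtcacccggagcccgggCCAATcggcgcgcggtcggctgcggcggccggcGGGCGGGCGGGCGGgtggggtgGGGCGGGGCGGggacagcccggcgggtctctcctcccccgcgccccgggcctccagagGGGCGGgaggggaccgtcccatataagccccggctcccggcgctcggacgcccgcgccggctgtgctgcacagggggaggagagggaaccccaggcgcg
COL4A2 chr13:110307034-110307333 (plus strand): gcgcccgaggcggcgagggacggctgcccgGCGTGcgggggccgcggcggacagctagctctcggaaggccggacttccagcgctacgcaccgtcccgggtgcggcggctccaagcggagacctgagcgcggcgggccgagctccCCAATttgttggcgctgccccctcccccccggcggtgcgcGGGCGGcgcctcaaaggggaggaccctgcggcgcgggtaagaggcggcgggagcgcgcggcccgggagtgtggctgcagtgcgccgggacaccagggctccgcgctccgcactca
The table matched 41 members with 54 windows, some genes having several starts, and the other 15 members have no window here. The windows of COL4A1 and COL4A2 share 226 bases. A GC box was found in 53.7% of the members' windows and 45% of all 35116 windows, a CCAAT box in 31.5% and 34.6%, a TATA box in 18.5% and 11.5%, an AP-1 element in 3.7% and 7.71%, a SMAD box in 44.4% and 45.3%, and a hypoxia element in 44.4% and 48.4%. The CArG box, which serum response factor binds, was found in 0 of the members' windows and 1.29% of all windows. These matches describe letters only and show no binding.

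Before any comparison, the order of levels was read per kilobase of merged exon length. In control, SPARC led with 1472 normalized counts per kilobase, followed by COL6A1 (1186), COL4A5 (327), FBN2 (236) and COL4A2 (235). In NPC the order was SPARC (2734), COL6A1 (939), COL2A1 (606), FN1 (584) and COL4A2 (555). In control, FBN2 and COL4A2 differed by less than the spread of COL4A2 over libraries, and in NPC the same held for FN1 and COL2A1. SPARC is a matricellular protein that binds collagen. The type I chains stood lower on the same scale: COL1A1 was at 9.92 normalized counts per kilobase in control and 126 in NPC, and COL1A2 at 104 in control and 136 in NPC. At the low end, 8 members (COL17A1, COL4A3, COL4A4, COL6A5, COL6A6, COL8A2, COL10A1 and COL13A1) did not pass the filter on low values (at least 10 normalized counts in at least 8 libraries) in either fit. COL15A1, COL21A1 and POSTN passed only at day 10, which left 45 members tested for differentiation and 48 for exposure.

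The first comparison asks how the matrix genes of day 10 control co-cultures differed from those of the NPC they came from. The members fell on balance: in the deposited totals they took a lowest, median and highest share of 0.197, 0.207 and 0.218% in control libraries, against 0.372, 0.395 and 0.413% in NPC libraries, and no control library reached any NPC library. By limma, 30 of 45 tested members were lower and 9 higher in control than in NPC, while 36.8% of all 18063 genes tested were called lower, 33.9% higher and 70.7% either way. The median member differed by -1.25 on the log2 scale, against -0.015 for all genes. Of these 39 calls, 34 held when each of the 16 libraries was left out in turn, and 36 had the same direction in all 6 sequencing runs. One of the members counted as lower, COL14A1, passed the filter on low values only through its NPC libraries. In bulk RNA, fewer cells of a type and less RNA per cell cannot be told apart, here and in each comparison below.

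**Figure D1:**
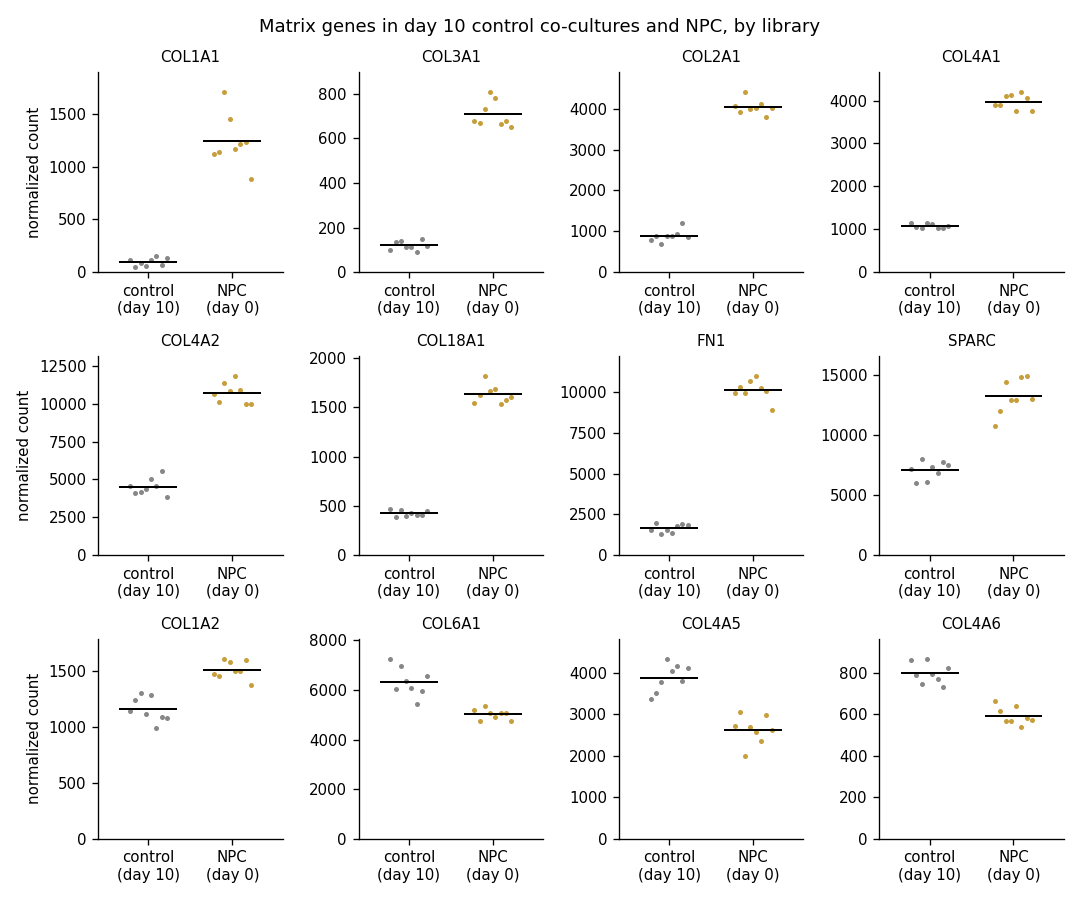
Normalized counts of 12 members in the 8 control (day 10, left) and 8 NPC (day 0, right) libraries, with a bar at each group's mean and axes that start at 0. The first 9 panels have all 8 control libraries under all 8 NPC libraries, COL1A1 with 49.3 to 153 against 885 to 1705, while COL6A1, COL4A5 and COL4A6 lie the other way.

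Of the 11 fibrillar collagens, 10 were lower in control and 0 higher, and COL27A1 was not called at a log2 difference of -0.04 ± 0.085 (SE). COL1A1, the main chain of type I collagen of bone, skin and tendon, had a lowest, median and highest value of 49.3, 101 and 153 normalized counts in control and 885, 1192 and 1705 in NPC. Its groups lay far apart, and the log2 difference -3.72 ± 0.25 (SE), adjusted p = 6.59e-08, is a level 13.2-fold lower in control. COL1A2, its partner chain in the same trimer, differed less: it had 994, 1130.2 and 1305 in control and 1381, 1503 and 1613 in NPC (log2 difference -0.40 ± 0.052 (SE), adjusted p = 2.28e-05). Both chains were apart between the groups. COL3A1, the type III chain of vessel walls and reticular fibres, had 91.5, 116 and 149 in control and 652, 678 and 806 in NPC (log2 difference -2.61 ± 0.083 (SE), adjusted p = 1.15e-10).

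The cartilage-type fibrillar chains COL2A1 and COL11A1, which are also expressed in early neuroepithelium and sensory epithelia, were lower too. COL2A1 had 693, 885 and 1194 in control and 3796, 4014 and 4398 in NPC, 4.64-fold lower (log2 difference -2.21 ± 0.080 (SE), adjusted p = 3.38e-10). COL11A1 had 662, 731 and 869 in control and 1921, 2187 and 2389.9 in NPC (log2 difference -1.53 ± 0.079 (SE), adjusted p = 6.07e-09). All 3 chains of type V collagen, which nucleates type I fibrils, fell, COL5A3 by the most (17.6 ± 6.67 in control and 255 ± 20.97 in NPC, SD, n = 8 each). COL24A1 fell by 3.10 on the log2 scale, and COL11A2 by 0.20, where leaving out any of 2 of the 16 libraries ended its call, with the highest adjusted p, 0.072, without NPC replicate 4.

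Among the fibril-associated collagens, which decorate fibrils without forming them, 5 of 9 tested were lower and 2 higher in control. COL14A1, a collagen of embryonic connective tissue, had 2.06, 3.67 and 18.7 in control and 167, 204 and 253 in NPC. It reached 10 normalized counts in 2 of 8 control libraries, so its place among the calls is given as a description and not as a test. COL12A1, its relative on dense connective tissue fibrils, had 24.8, 40.2 and 128 in control and 491, 572 and 659 in NPC (log2 difference -3.48 ± 0.28 (SE), adjusted p = 3.02e-07). COL9A2, a chain of the cartilage collagen type IX, ran the other way with 409.9, 470.2 and 588 in control and 231, 272 and 298 in NPC (log2 difference 0.81 ± 0.072 (SE), adjusted p = 7.35e-07), and its groups did not overlap. Its partner COL9A3 fell slightly (log2 difference -0.55 ± 0.17 (SE), adjusted p = 0.0128), where leaving out any of 2 of the 16 libraries ended its call, with the highest adjusted p, 0.0524, without NPC replicate 3. COL22A1 was called higher (118 ± 38.1 in control, 76.8 ± 30.1 in NPC, SD, n = 8 each), where leaving out any of 4 of the 16 libraries ended its call, with the highest adjusted p, 0.104, without NPC replicate 4.

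Type IV collagen split by gene pair. COL4A1 and COL4A2, the ubiquitous pair that starts head to head within 127 bp on chromosome 13, both fell: COL4A1 had 1033, 1067 and 1154 in control and 3749, 3979.5 and 4190.1 in NPC (log2 difference -1.89 ± 0.032 (SE), adjusted p = 1.05e-12). COL4A2 had 3854, 4468 and 5545 in control and 9942, 10728 and 11846 in NPC (log2 difference -1.25 ± 0.062 (SE), adjusted p = 4.54e-09). COL4A5 and COL4A6, which lie head to head on the X chromosome, both rose. COL4A6 has more than 1 start: 1 lies 1416 bp from that of COL4A5, and the window of a nearer start overlaps the COL4A5 window. COL4A5 had 3356, 3923 and 4335 in control and 1994, 2646 and 3063 in NPC (log2 difference 0.63 ± 0.067 (SE), adjusted p = 3.5e-06). COL4A6 had 732, 791 and 867 in control and 537, 576 and 661 in NPC (log2 difference 0.44 ± 0.061 (SE), adjusted p = 4.14e-05). In all 4 genes the control and NPC libraries did not overlap. COL4A3 and COL4A4, whose starts lie 419 bp apart on chromosome 2 and whose products form the kidney type of basement membrane, were not tested: COL4A3 had 0 to 17.5 normalized counts in control and 3.58 to 22.7 in NPC, and COL4A4 0.890 to 20.1 in control and 1.54 to 8.05 in NPC.

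Type VI collagen, which forms beaded filaments at the cell surface, also split between its chains. COL6A1, the most abundant collagen per kilobase in both groups, rose slightly, with 5414, 6227 and 7261 in control and 4729, 5069 and 5368 in NPC (log2 difference 0.30 ± 0.047 (SE), adjusted p = 9.91e-05). COL6A3 fell 6.54-fold, with 44.5, 96.8 and 276 in control and 565, 610.5 and 738 in NPC (log2 difference -2.71 ± 0.21 (SE), adjusted p = 2.6e-07), and COL6A2 3.10-fold (174 ± 83.9 in control and 493 ± 83.9 in NPC, SD, n = 8 each). COL28A1, a related collagen of peripheral nerve, rose to 54.4, 72.6 and 113 in control, against 15.4, 20.3 and 42.9 in NPC (log2 difference 1.58 ± 0.20 (SE), adjusted p = 1.74e-05). COL18A1, the basement membrane collagen whose end fragment is endostatin, had 386, 417 and 464 in control and 1527, 1610.4 and 1819 in NPC (log2 difference -1.95 ± 0.047 (SE), adjusted p = 1.28e-11). Exons of SLC19A1 cover 16.4% of the COL18A1 exon length on the opposite strand. The library kit keeps strand, but the labels do not say whether strand was used in the quantification.

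All 6 matrix glycoproteins tested fell, while POSTN (periostin) did not pass the filter, with 0 to 5.84 in control and 6.37 to 19.3 in NPC. FN1, fibronectin, the main adhesive protein of provisional matrix, had 1328, 1666 and 1972 normalized counts in control and 8851, 10133 and 10985 in NPC, 6.32-fold lower (log2 difference -2.66 ± 0.080 (SE), adjusted p = 7.44e-11). THBS1, a matricellular protein that activates latent TGF-beta, had 22.6, 73.8 and 142 in control and 514, 632 and 1159 in NPC (log2 difference -3.39 ± 0.37 (SE), adjusted p = 4.54e-06), and the groups stood apart although NPC replicate 7 was well above the other NPC libraries. SPARC had 6050.1, 7272 and 8035 in control and 10726, 12958 and 14943 in NPC (log2 difference -0.91 ± 0.084 (SE), adjusted p = 1.09e-06). The fibrillins, which build microfibrils, fell as well: FBN2, the fetal form, had 2871, 3112 and 3398 in control and 6577, 7123 and 7313 in NPC (log2 difference -1.18 ± 0.042 (SE), adjusted p = 2.66e-10), and FBN1 averaged 328 ± 25.4 in control and 1078 ± 157 in NPC (SD, n = 8 each).

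The other collagens moved one by one. COL7A1, the anchoring fibril collagen of skin, was called higher in control, with 785, 1695 and 2205 in control and 839, 952 and 1727 in NPC (log2 difference 0.62 ± 0.23 (SE), adjusted p = 0.0294), where leaving out any of 4 of the 16 libraries ended its call, with the highest adjusted p, 0.0849, without control replicate 5. COL8A1, a network collagen of vessel walls and cornea, fell, with 26.05, 30.9 and 40.8 in control and 44.6, 62.1 and 744 in NPC (log2 difference -1.31 ± 0.35 (SE), adjusted p = 0.00538). COL19A1, a minor fibril-associated collagen, averaged 21.8 ± 13.1 in control and 129 ± 22.3 in NPC (SD, n = 8 each) and did not overlap. COL26A1 was called higher (log2 difference 0.43 ± 0.15 (SE), adjusted p = 0.0191), where without NPC replicate 4 its adjusted p was 0.0604. COL16A1, COL20A1 and COL23A1 were not called. Of those that did not pass the filter here, COL13A1 had 1.99 to 11.6 in control and 8.05 to 29.9 in NPC, COL15A1 5.84 to 32.6 in control and 3.86 to 7.31 in NPC, and COL21A1 0.995 to 12.6 in control and 4.25 to 17.9 in NPC. COL6A5, COL6A6, COL8A2, COL10A1 and COL17A1 averaged at most 4.92 normalized counts in either group.

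Of the small leucine-rich proteoglycans, BGN (biglycan) fell 7.92-fold (11.5 ± 2.78 in control and 103 ± 18.3 in NPC, SD, n = 8 each), LUM (lumican) fell with overlapping groups (log2 difference -1.12 ± 0.30 (SE), adjusted p = 0.00496), and DCN (decorin) was not called at -0.53 ± 0.38 (SE). The highest library of any of these 3 genes was an NPC library with 134 normalized counts of BGN. ACTA2, smooth muscle actin, had 101, 120.2 and 138 in control and 189.5, 232 and 254 in NPC (log2 difference -0.93 ± 0.082 (SE), adjusted p = 7e-07), with the groups apart. TAGLN, transgelin, had 223, 269 and 304 in control and 232, 309 and 531 in NPC and was not called (adjusted p = 0.161). Opposite-strand exons of ACTA2-AS1 and FAS cover 17.3% and 12.8% of the ACTA2 exon length, and those of PCSK7 cover 11.4% of TAGLN.

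**Figure D2:**
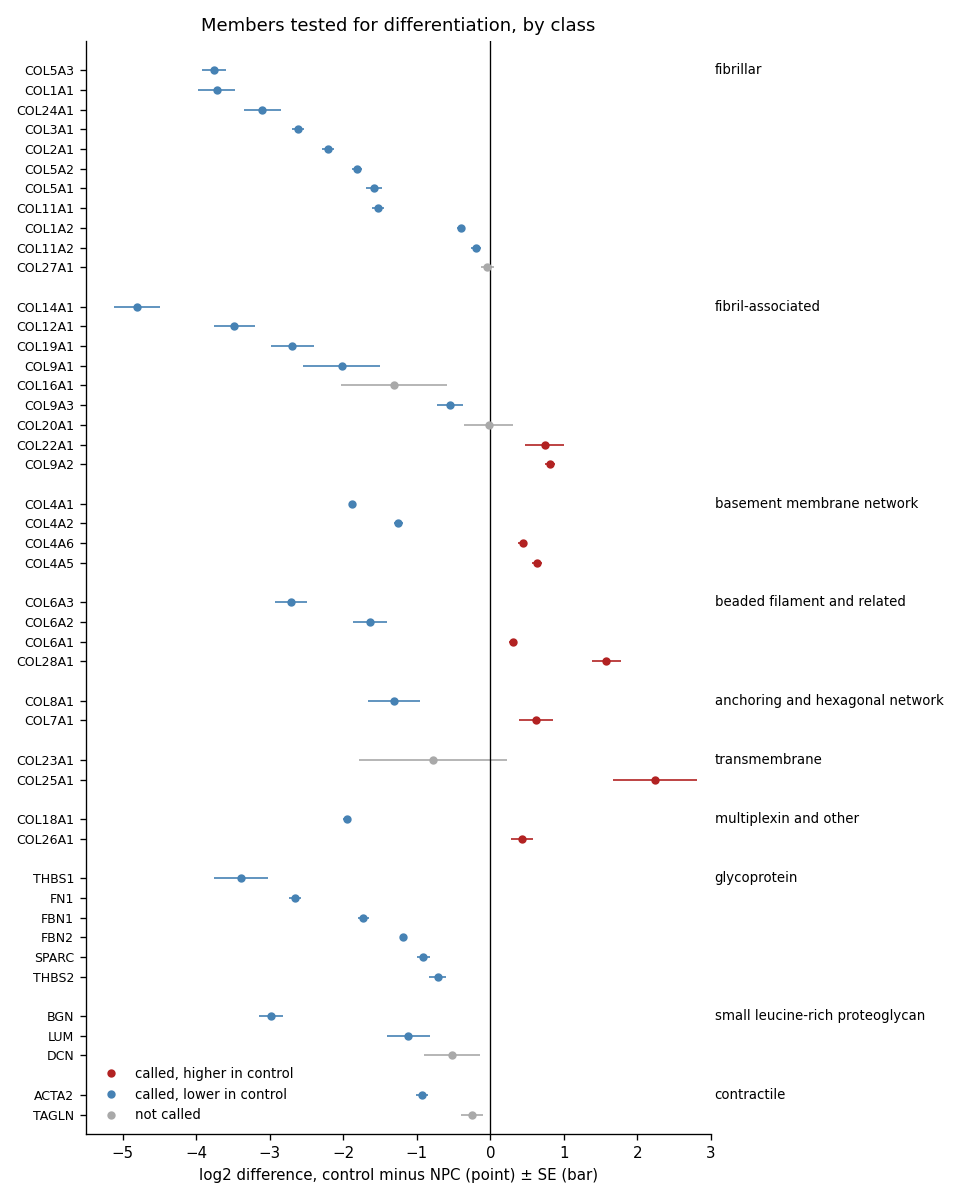
Log2 difference, control minus NPC, with its standard error for the 45 members tested, grouped by class (n = 8 libraries each). Points left of 0 are lower in control; 30 are called lower (blue), 9 higher (red) and 6 not called (grey), and the fibrillar and glycoprotein classes hold no member called higher.

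Genes that make and assemble collagen moved in both directions. Of 30 tested processing genes (prolyl and lysyl hydroxylases, chaperones, propeptide proteases and lysyl oxidases), 8 rose and 15 fell, and their median difference was -0.25 against -0.015 for all genes. With 70.7% of all genes called in this comparison, the shares called of this list (76.7%), of the basement membrane partners (81.2%), receptors (68.8%), turnover genes (84.2%) and TGF-beta pathway (84%) stand near or somewhat above that background, and no list was tested as a set. LOXL2, a lysyl oxidase that cross-links collagen, averaged 115 ± 26.4 in control and 565 ± 36.9 in NPC, and TLL1, a protease that cuts the C-propeptide, averaged 29.05 ± 26.9 in control and 401 ± 37.7 in NPC (SD, n = 8 each). Of 16 basement membrane partners, 4 rose and 9 fell. NID1, the linker nidogen, averaged 47.1 ± 6.02 in control and 1019 ± 36.8 in NPC (log2 difference -4.36 ± 0.073 (SE), adjusted p = 8.74e-13), and LAMC1, the most used laminin gamma chain, averaged 898 ± 102 in control and 4411 ± 437 in NPC.

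Of 16 matrix receptors tested, 2 rose and 9 fell. ITGB5, an integrin chain that binds vitronectin, averaged 533 ± 99.7 in control and 15733 ± 1278 in NPC, and ITGB1, the common partner of the collagen and laminin receptors, averaged 3612 ± 166 in control and 7481 ± 279.6 in NPC (SD, n = 8 each). Of 19 turnover genes, 2 rose and 14 fell. The protease inhibitor TIMP4, counted among those that fell, averaged 0.971 in control and 298 in NPC. It passed the filter on low values only through its NPC libraries, so it is given as a description and not as a test. Of 25 genes of the TGF-beta pathway, which drives collagen transcription in fibroblasts, 6 rose and 15 fell. The receptor TGFBR2 averaged 16.6 ± 3.22 in control and 158 ± 14.8 in NPC, while the ligand TGFB2 averaged 104 ± 30.7 in control and 22.6 ± 8.98 in NPC.

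Markers of other cell types moved both ways beside the fall. Their counts stand beside 70.7% of all genes called in this comparison, 33.9% higher and 36.8% lower, and no list was tested as a set. Of 20 mesenchymal and pericyte markers, 13 were tested, 2 rose and 9 fell, and the list summed to 5660.4 to 7114 normalized counts in control and 7055 to 8586 in NPC, most of it NOTCH3, which neural progenitors also express. The mesenchymal transcription factor PRRX1 averaged 0.690 in control and 47.5 in NPC, and TWIST1 averaged 0.137 in control and 2.86 in NPC. At these levels no control library of either gene could reach the filter on low values, so both are given as a description. MYL9, a smooth muscle myosin light chain, averaged 21.9 ± 5.13 in control and 278 ± 20.03 in NPC (SD, n = 8 each). PRRX1, TWIST1 and MYL9 were all lower in control, and the 2 markers of this list that rose are not given with values here. Of 8 endothelial markers, 5 were tested and 3 fell, with sums of 89.6 to 256 in control and 265 to 616 in NPC. The list of the neural crest, an embryonic source of mesenchyme, summed higher in control instead. Of its 10 markers, 9 were tested, 5 rose and 2 fell, with sums of 18647 to 19653 in control and 7871 to 9010.1 in NPC, most of it TFAP2B, PAX3 and PAX7, which neural progenitors can also express. SOX10, a defining crest factor, averaged 14.00 ± 7.74 in control and 44.05 ± 12.5 in NPC (SD, n = 8 each). The part of these cell types in the fall of the matrix genes was not tested.

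The exposures were compared with the same 8 control libraries, so their differences from control are not independent of each other. In shares of the deposited total, valproic acid IC5 stood highest, with 0.248, 0.254 and 0.265% as lowest, median and highest library, against 0.197, 0.207 and 0.218% in control, and no library of either group overlapped the other. The other 9 exposed groups had medians from 0.176% (chlorpyrifos IC5) to 0.212% (acrylamide IC5). Of the 48 members tested at day 10, 34 were called in at least 1 exposed group against control and 14 in none. The share of all genes called in at least 1 exposed group is not given here, so this count cannot be set against that background. Acrylamide IC5 alone called 42% of all genes and valproic acid IC5 26.9%. The 14 members called in none were COL4A1, COL6A3, COL7A1, COL8A1, COL9A1, COL14A1, COL15A1, COL16A1, COL19A1, COL21A1, COL23A1, COL24A1, COL25A1 and COL28A1.

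**Figure D3:**
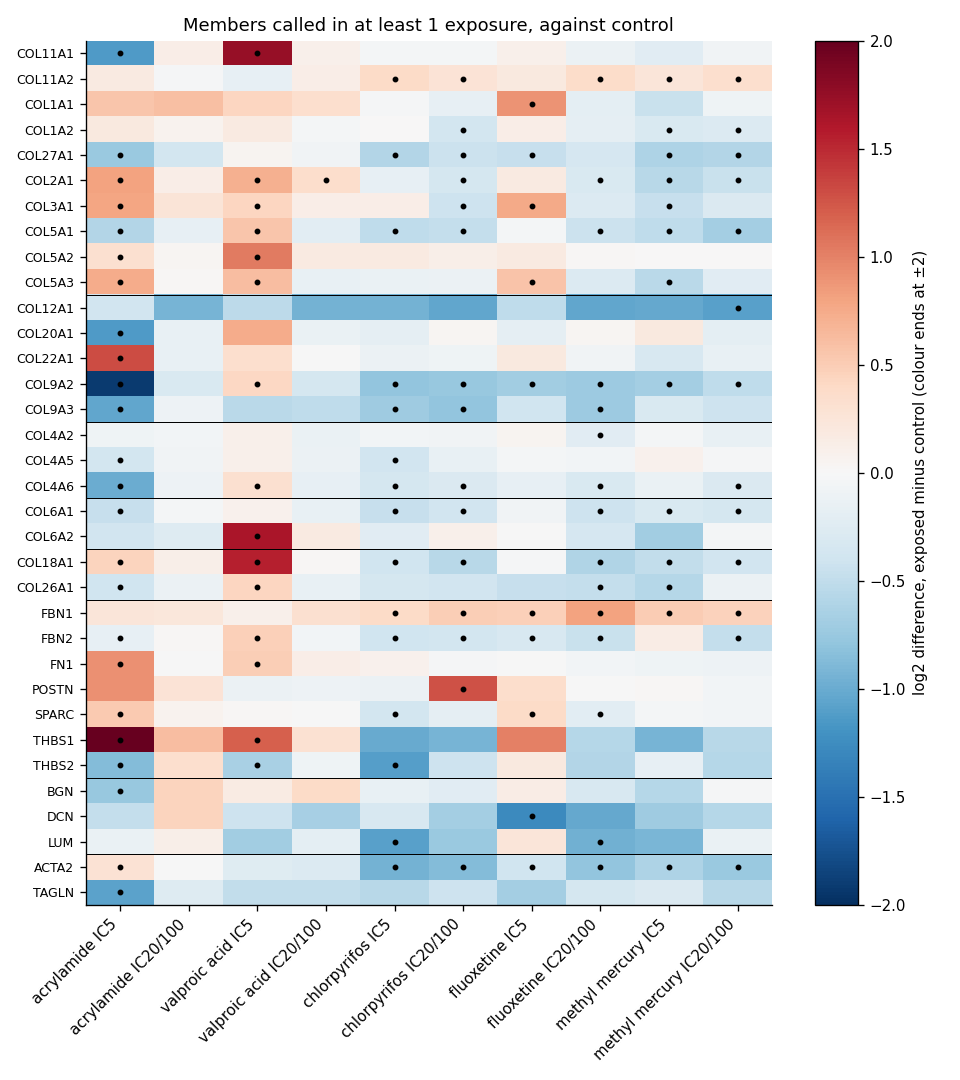
Log2 difference from control for the 34 members called in at least 1 exposure (rows, with lines between classes) in the 10 exposed groups (columns, IC5 left of IC20/100); red is higher and blue lower than control, and a dot marks a called difference. Valproic acid IC5 has 14 members called higher and 1 lower, acrylamide IC5 10 and 14, and acrylamide IC20/100 none.

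With valproic acid IC5, 14 of 48 members were higher than control and 1 lower, where 26.9% of all 20136 genes were called, 14.5% higher and 12.4% lower. The median member differed by 0.17 on the log2 scale, against 0.002 for all genes, and 12 of the 15 calls held in every alternative fit and with each library left out; 12 had the same direction in all 6 runs. COL11A1, the minor fibrillar chain that sets fibril width, had 2293, 2486 and 2664 normalized counts as lowest, median and highest with valproic acid IC5, against 662, 731 and 869 in control. Every exposed library lay above every control library (3.35-fold higher, log2 difference 1.74 ± 0.093 (SE), adjusted p = 8.91e-27), where NPC averaged 2173. COL18A1 had 1144, 1228 and 1387 with valproic acid IC5 and 386, 417 and 464 in control, 2.94-fold higher (log2 difference 1.55 ± 0.082 (SE), adjusted p = 6.36e-27).

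COL6A2 had 386, 437 and 1006 with valproic acid IC5 and 118, 135 and 365 in control (log2 difference 1.63 ± 0.31 (SE), adjusted p = 1.81e-05). Its groups were apart although replicate 8 of each group was far above the rest of that group. COL5A2, a type V chain, had 536, 653 and 750.4 with valproic acid IC5 and 249, 326 and 368 in control (log2 difference 1.05 ± 0.11 (SE), adjusted p = 7.86e-12), and COL2A1 had 1358, 1407 and 1656 with valproic acid IC5 and 693, 885 and 1194 in control (log2 difference 0.71 ± 0.097 (SE), adjusted p = 1.13e-08). Both were apart from control. FBN2, FN1 and COL4A6 also rose with no overlap between groups, at 1.40-fold, 1.40-fold and 1.25-fold. COL5A1, COL5A3, COL3A1, COL9A2 and COL26A1 were called higher with overlapping groups. For COL26A1, leaving out any of 10 of the 16 libraries ended its call, with the highest limma adjusted p, 0.118, without valproic acid IC5 replicate 3. The calls of both thrombospondins were fragile as well. THBS1 was called higher (log2 difference 1.19 ± 0.47 (SE), adjusted p = 0.0467), where leaving out any of 9 of the 16 libraries ended its call, with the highest adjusted p, 0.129, without control replicate 8. THBS2, the 1 member called lower (log2 difference -0.65 ± 0.24 (SE), adjusted p = 0.0338), lost its call likewise, where leaving out any of 7 of the 16 libraries ended its call, with the highest adjusted p, 0.0779, without valproic acid IC5 replicate 8.

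The rise was tested between the concentrations as well. At IC20/100, 1 of 48 members was called against control, COL2A1 (log2 difference 0.35 ± 0.098 (SE), adjusted p = 0.0379), where leaving out any of 7 of the 16 libraries ended its call, with the highest adjusted p, 0.184, without valproic acid IC20/100 replicate 8, and 2.54% of all genes were called. Set directly against IC20/100, valproic acid IC5 was higher in 15 members and lower in 1, COL11A2, where 17% of all genes were called, 9.73% higher and 7.27% lower. All 16 calls held in every alternative fit and with each library left out. COL11A1 had 2293, 2486 and 2664 at IC5 and 608, 810.3 and 1060.2 at IC20/100 (log2 difference 1.64 ± 0.093 (SE), adjusted p = 1.09e-24), COL18A1 had 1144, 1228 and 1387 at IC5 and 364, 435 and 488 at IC20/100 (log2 difference 1.53 ± 0.083 (SE), adjusted p = 6.98e-26), and neither gene overlapped between the concentrations. COL5A1 averaged 479 ± 65.9 at IC5 and 279 ± 49.9 at IC20/100, and COL9A2 averaged 644 ± 94.7 at IC5 and 377 ± 84.1 at IC20/100 (SD, n = 8 each).

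Companions of the collagens moved in both directions with valproic acid IC5: 4 of 29 processing genes rose and 6 fell, 2 of 16 basement membrane partners rose and 1 fell, and 8 of 24 TGF-beta pathway genes rose and 4 fell. Their shares called, 34.5%, 18.8% and 50% in that order, stand beside 26.9% of all genes, and no list was tested as a set. NID1 averaged 117 ± 9.73 with valproic acid IC5 and 47.1 ± 6.02 in control (log2 difference 1.28 ± 0.13 (SE), adjusted p = 4.57e-13), and LAMA4, a laminin chain of vessels and nerve, averaged 664 ± 41.5 with valproic acid IC5 and 343 ± 54.2 in control. CCN2, a secreted matricellular target of TGF-beta and YAP, fell to 335 ± 51.99, against 747 ± 47.1 in control (log2 difference -1.16 ± 0.070 (SE), adjusted p = 1.23e-23). MMP2, a gelatinase, averaged 784 ± 136 with valproic acid IC5 and 425 ± 102 in control (SD, n = 8 each). Of 12 mesenchymal and pericyte markers tested, 2 rose and 1 fell, and the list's sum was 5134 to 6611 with valproic acid IC5 and 5660.4 to 7114 in control. PRRX1 stood at 4.23 and TWIST1 at 1.25 with valproic acid IC5, against 0.690 and 0.137 in control. These means lie under the 10 normalized counts of the filter on low values, so both genes are given as a description. Of 8 progenitor markers, 5 rose and 2 fell, with sums of 103290 to 110350 with valproic acid IC5 and 99755 to 108050 in control, and of 10 neural crest markers 3 rose and 4 fell. Their part in the rise was not tested.

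**Figure D4:**
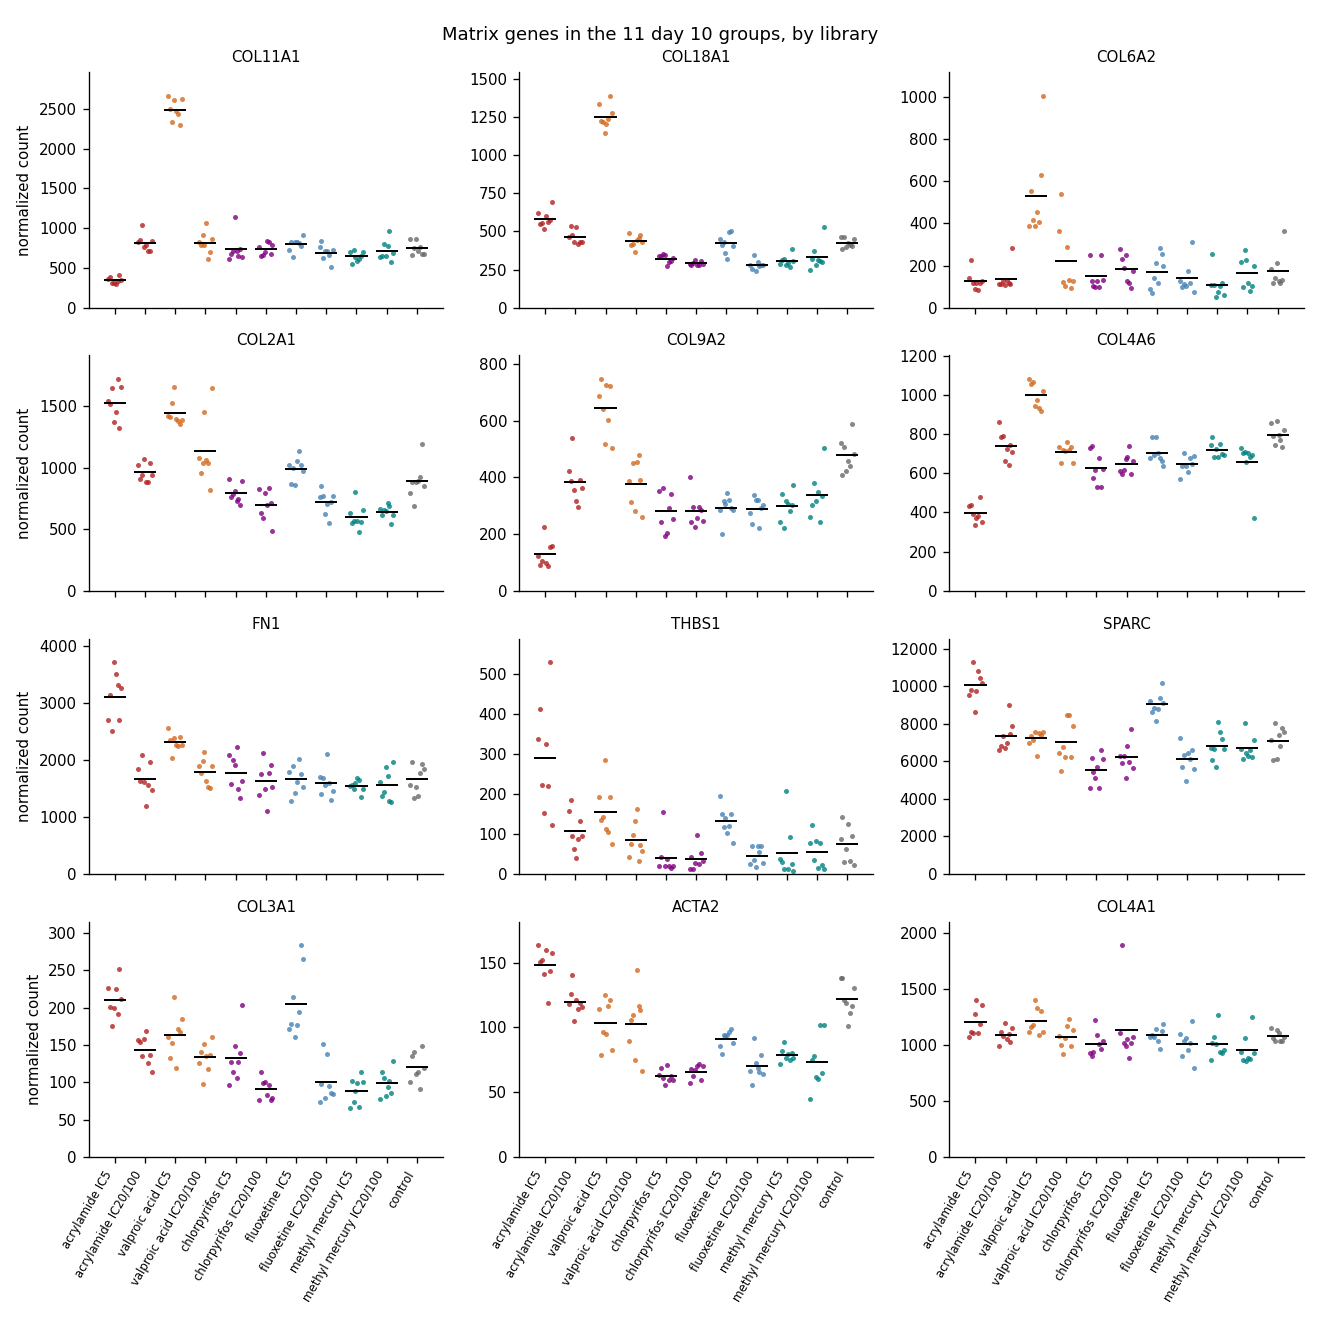
Normalized counts of 12 members in each library of the 10 exposed groups and of control (rightmost), with a bar at each group's mean, IC5 left of IC20/100 and axes that start at 0. The valproic acid IC5 libraries stand above all others for COL11A1 and COL18A1 and the acrylamide IC5 libraries below all others for COL11A1, while COL4A1 was called in no exposed group against control.

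Acrylamide IC5 shifted members both ways: 10 of 48 were higher and 14 lower than control, in a comparison that called 42% of all genes, 20.5% higher and 21.5% lower. The median member differed by -0.15 on the log2 scale, against -0.008 for all genes. The share of members called, 50%, stands near that background. THBS1 rose most, with 123, 274 and 529 as lowest, median and highest value with acrylamide IC5 and 22.6, 73.8 and 142 in control. Its groups overlapped at the edge, and it was 4.30-fold higher (log2 difference 2.10 ± 0.47 (SE), adjusted p = 0.00014). FN1 had 2504, 3201 and 3723 with acrylamide IC5 and 1328, 1666 and 1972 in control (log2 difference 0.92 ± 0.11 (SE), adjusted p = 3.92e-11). COL22A1, a collagen of tissue junctions, had 226, 288 and 318 with acrylamide IC5 and 71.9, 106 and 184 in control (log2 difference 1.31 ± 0.17 (SE), adjusted p = 6.79e-10). Neither gene overlapped between the groups.

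COL2A1 had 1327, 1529.9 and 1722 with acrylamide IC5 and 693, 885 and 1194 in control (log2 difference 0.80 ± 0.098 (SE), adjusted p = 1.35e-10), COL3A1 had 176, 206 and 253 with acrylamide IC5 and 91.5, 116 and 149 in control (log2 difference 0.79 ± 0.13 (SE), adjusted p = 8.06e-07), and SPARC had 8649, 9999 and 11303 with acrylamide IC5 and 6050.1, 7272 and 8035 in control (log2 difference 0.52 ± 0.075 (SE), adjusted p = 1.31e-08). In these 3 genes every acrylamide IC5 library was above every control library. COL9A2 fell most, to 87.5, 114 and 226 with acrylamide IC5, against 409.9, 470.2 and 588 in control, 3.75-fold lower (log2 difference -1.91 ± 0.14 (SE), adjusted p = 5.71e-20). COL11A1 had 304, 338 and 411 with acrylamide IC5 and 662, 731 and 869 in control (log2 difference -1.13 ± 0.093 (SE), adjusted p = 1.76e-17). COL4A6 fell too, with 334, 389 and 478 with acrylamide IC5 and 732, 791 and 867 in control (log2 difference -0.997 ± 0.076 (SE), adjusted p = 3.89e-19), while its neighbour COL4A5 differed by -0.37 ± 0.059 (SE) and neither COL4A1 nor COL4A2 was called. TAGLN averaged 136 ± 62.3 with acrylamide IC5 and 268 ± 32.1 in control (SD, n = 8 each, adjusted p = 0.000909) and overlapped, whereas ACTA2 was called slightly higher (log2 difference 0.28 ± 0.11 (SE), adjusted p = 0.0266), where leaving out any of 3 of the 16 libraries ended its call, with the highest adjusted p, 0.063, without control replicate 5.

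THBS2, a relative of THBS1, was called lower (log2 difference -0.86 ± 0.24 (SE), adjusted p = 0.00235), but acrylamide IC5 replicate 6 held 356 normalized counts where the other 7 libraries held 50.9 to 67.3, and edgeR and DESeq2 on recovered reads did not call it. With acrylamide IC20/100, limma called 0 of 48 members against control, where 0.0596% of all genes were called. At an unadjusted p under 0.05 there were 4 members and 6.58% of all genes, and edgeR and DESeq2 on recovered reads each called 0 members. Set directly against IC20/100, acrylamide IC5 was higher in 11 members and lower in 14, with 41.1% of all genes called, 20% higher and 21.1% lower. COL22A1 had 226, 288 and 318 at IC5 and 82.4, 95.5 and 135 at IC20/100 (log2 difference 1.45 ± 0.17 (SE), adjusted p = 2.44e-11), and COL9A2 had 87.5, 114 and 226 at IC5 and 295, 376 and 539.7 at IC20/100 (log2 difference -1.60 ± 0.14 (SE), adjusted p = 2.56e-16), both without overlap.

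Of 29 collagen processing genes tested with acrylamide IC5, 4 rose (13.8%) and 12 fell (41.4%), beside 20.5% and 21.5% of all genes, and the list was not tested as a set. LOX, a collagen and elastin cross-linking enzyme, averaged 10.7 ± 5.91 with acrylamide IC5 and 75.4 ± 17.8 in control (log2 difference -2.69 ± 0.19 (SE), adjusted p = 2.45e-20), LOXL1 averaged 250.2 ± 35.6 with acrylamide IC5 and 521 ± 35.3 in control, and P4HA1, the catalytic chain of prolyl 4-hydroxylase that oxygen shortage induces, averaged 754 ± 37.7 with acrylamide IC5 and 1935 ± 182 in control (log2 difference -1.37 ± 0.058 (SE), adjusted p = 5.24e-33). Of 17 receptors, 4 rose and 4 fell, a share of 47.1% called that stands near the 42% of all genes. ITGA5, the chain of the fibronectin receptor, averaged 276 ± 64.6 with acrylamide IC5 and 664 ± 142 in control (SD, n = 8 each, log2 difference -1.22 ± 0.16 (SE), adjusted p = 4.33e-10), opposite in sign to its ligand FN1. Of 12 mesenchymal and pericyte markers tested, 0 rose and 2 fell, and of 7 endothelial ones 2 rose and 0 fell, with sums of 141 to 218 with acrylamide IC5 and 89.6 to 256 in control. The sums of the progenitor and neural crest lists did not overlap those of control, whereas the neuron, astrocyte, and mesenchymal and pericyte sums did. The progenitor list summed to 82641 to 91964 with acrylamide IC5 and 99755 to 108050 in control, with 3 of 8 genes higher and 4 lower. In it VIM, which makes up most of the sum, averaged 51588 with acrylamide IC5 and 72146 in control, while MKI67, a marker of dividing cells, averaged 5062 with acrylamide IC5 and 3209.8 in control. The neural crest list summed to 17104 to 18396 with acrylamide IC5 and 18647 to 19653 in control, and of 10 neuron markers 2 rose and 4 fell. The part of these cell types in the differences was not tested.

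The fluoxetine concentrations were compared with each other, both in the same vehicle. IC5 was higher than IC20/100 in 14 members and lower in 0, where 3.76% of all genes were called, 2.3% higher and 1.46% lower. Of these calls, 7 held in every alternative fit and with each library left out, and 9 had the same direction in all 6 runs. SPARC had 8154, 8989.9 and 10204 as lowest, median and highest value at IC5 and 4968, 6236 and 7267 at IC20/100 (log2 difference 0.59 ± 0.075 (SE), adjusted p = 9.11e-09). COL3A1 had 161, 186 and 284 at IC5 and 74.2, 89.8 and 151 at IC20/100, 2.05-fold higher (log2 difference 1.03 ± 0.13 (SE), adjusted p = 1.57e-08). COL6A1 (6015 ± 242 at IC5 and 4749 ± 420.5 at IC20/100) and COL2A1 (992 ± 92.9 at IC5 and 719.5 ± 94.5 at IC20/100, SD, n = 8 each) likewise did not overlap. COL1A1 had 104, 156 and 360.1 at IC5 and 58.1, 74.8 and 149 at IC20/100 (log2 difference 1.10 ± 0.29 (SE), adjusted p = 0.0127), and without fluoxetine IC5 replicate 7 its adjusted p was 0.0544. For THBS1, with 77.7, 130.1 and 195 at IC5 and 17.2, 44.3 and 69.6 at IC20/100, leaving out any of 10 of the 16 libraries ended its call, with the highest adjusted p, 0.0979, without fluoxetine IC20/100 replicate 4. Of the TGF-beta pathway list, 2 of 24 genes rose and 0 fell, CCN2 averaging 772 ± 112 at IC5 and 387 ± 54.97 at IC20/100 (log2 difference 0.97 ± 0.071 (SE), adjusted p = 2.06e-18). The progenitor list summed to 100490 to 108600 at IC5 and 88037 to 96229 at IC20/100 without overlap, with 2 of 8 genes higher at IC5 (VIM and FABP7) and 3 lower (NES, HES5 and MKI67). Of 10 neuron markers 0 were higher and 0 lower, and of 12 mesenchymal and pericyte markers 1 and 0. Their part in the difference between concentrations was not tested.

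Against control, fluoxetine IC5 had 5 members higher and 5 lower (11.4% of all genes called, 5.47% higher and 5.94% lower), and fluoxetine IC20/100 had 2 higher and 13 lower (14.4%, 6.88% and 7.54%). COL3A1 at IC5 (161, 186 and 284, against 91.5, 116 and 149 in control) and SPARC at IC5 (8154, 8989.9 and 10204, against 6050.1, 7272 and 8035 in control) rose with no overlap (log2 difference 0.75 ± 0.13 (SE), adjusted p = 1.48e-05, and log2 difference 0.38 ± 0.075 (SE), adjusted p = 0.000131). COL1A1 was called as well (log2 difference 0.90 ± 0.29 (SE), adjusted p = 0.0275), but leaving out any of 4 of the 16 libraries ended its call, with the highest adjusted p, 0.0914, without fluoxetine IC5 replicate 7. DCN was called lower at IC5 from 0, 9.07 and 19.96 against 6.58, 18.2 and 60.7 in control, where leaving out any of 3 of the 16 libraries ended its call, with the highest adjusted p, 0.106, without fluoxetine IC5 replicate 3. At IC20/100, FBN1, which encodes the main fibrillin of adult microfibrils, had 367, 589 and 834, against 287, 336 and 358 in control (log2 difference 0.80 ± 0.14 (SE), adjusted p = 1.15e-05), and COL18A1 had 240, 279.6 and 346, against 386, 417 and 464 in control (log2 difference -0.59 ± 0.082 (SE), adjusted p = 3.99e-08).

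More members were lower than higher with chlorpyrifos and with methyl mercury. Against control, chlorpyrifos IC5 had 2 members higher and 13 lower (19.7% of all genes called, 9.92% higher and 9.75% lower), chlorpyrifos IC20/100 3 and 12 (14.1%, 7.06% and 7.02%), methyl mercury IC5 2 and 11 (10.9%, 4.85% and 6.06%) and methyl mercury IC20/100 2 and 11 (15.8%, 8.21% and 7.6%). The medians of the members were -0.21, -0.25, -0.31 and -0.23 in that order, against at most 0.006 in size for all genes. The calls of methyl mercury IC20/100 were the least stable of these: 5 of 13 held in every alternative fit, and with only the groups compared the count of members called was 5. Between concentrations, limma called 0 members of chlorpyrifos (0.0497% of all genes, and 6.98% at an unadjusted p under 0.05, with 7 members, while edgeR called 0 and DESeq2 5) and 1, FBN2, of methyl mercury (5.17% of all genes). Cell type markers moved beside these counts. The progenitor list summed to 87948 to 93565 with chlorpyrifos IC5 and 91651 to 98952 with chlorpyrifos IC20/100, both under the 99755 to 108050 of control without overlap. Its 8 genes moved both ways, with 2 higher and 3 lower at chlorpyrifos IC5 and 2 and 4 at IC20/100. With methyl mercury IC5 the progenitor list summed to 94562 to 101960 and with methyl mercury IC20/100 to 90877 to 99373 without replicate 8, which held 149760. There 1 gene was higher and 2 lower at IC5, and 1 and 3 at IC20/100 (1 and 4 without replicate 8). The neuron list summed to 83178 to 90195 with methyl mercury IC5 and 94073 to 100080 in control without overlap, with 7 of 10 genes lower. With methyl mercury IC20/100, 3 of 10 neuron genes were lower, and 1 of 10 without replicate 8. Of 12 mesenchymal and pericyte markers, 3 were lower with chlorpyrifos IC5, 2 with chlorpyrifos IC20/100, 4 with methyl mercury IC5 and 3 with methyl mercury IC20/100, with sums that overlapped control in each. The part of these cell types in the differences was not tested.

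The 3 compounds given in DMSO are set side by side for 4 of the members called in at least 5 of these 6 groups. COL5A1, COL6A1, COL18A1 and FBN2, all lower, and COL11A2, higher, were also called in 5 of the 6 and are not set out here. ACTA2 averaged 62.5 ± 5.07 with chlorpyrifos IC5, 65.8 ± 5.53 with chlorpyrifos IC20/100, 91.2 ± 6.53 with fluoxetine IC5, 70.2 ± 11.01 with fluoxetine IC20/100, 78.6 ± 5.12 with methyl mercury IC5, 73.4 ± 20.04 with methyl mercury IC20/100, against 122 ± 12.9 in control (SD, n = 8 each), and was called lower in all 6. Only methyl mercury IC20/100 overlapped the control libraries, with 44.9 to 102 against 101 to 138. In the groups given in medium, ACTA2 was called higher with acrylamide IC5. It was not called with acrylamide IC20/100 (119.9 ± 10.4), valproic acid IC20/100 (102 ± 25.02) or valproic acid IC5. COL9A2 averaged 280.1 ± 66.2 with chlorpyrifos IC5, 282 ± 54.9 with chlorpyrifos IC20/100, 294 ± 43.4 with fluoxetine IC5, 288 ± 41.9 with fluoxetine IC20/100, 298 ± 49.1 with methyl mercury IC5, 337 ± 81.00 with methyl mercury IC20/100, against 479 ± 59.4 in control, and was called lower in all 6. COL27A1, a fibrillar collagen of cartilage, differed from control by -0.59, -0.43, -0.45, -0.34, -0.62, -0.59 on the log2 scale in the same order, called lower in all but fluoxetine IC20/100. FBN1 differed by 0.38, 0.49, 0.47, 0.80, 0.50, 0.46 in that order and was called higher in all 6, where for chlorpyrifos IC5 leaving out any of 12 of the 16 libraries ended its call, with the highest adjusted p, 0.103, without chlorpyrifos IC5 replicate 8, and for fluoxetine IC5 without fluoxetine IC5 replicate 7 its adjusted p was 0.0585. In the groups given in medium, COL9A2 was called lower with acrylamide IC5 and higher with valproic acid IC5. COL27A1 was called lower there with acrylamide IC5, and FBN1 in no group. All 6 groups in DMSO share the control libraries and the vehicle, and the vehicle cannot be told apart from the compounds here.

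Other members of these groups are given by compound. COL18A1 had 271, 332 and 351 with chlorpyrifos IC5 and 277, 288 and 312 with chlorpyrifos IC20/100, against 386, 417 and 464 in control, without overlap at either concentration (log2 difference -0.40 ± 0.082 (SE), adjusted p = 0.000118 at IC5, and log2 difference -0.55 ± 0.083 (SE), adjusted p = 3.64e-07 at IC20/100). THBS2 had 56.3, 64.2 and 69.1 with chlorpyrifos IC5 and 103, 141 and 183 in control (log2 difference -1.10 ± 0.24 (SE), adjusted p = 0.000317), also without overlap. COL2A1 had 479, 569 and 803 with methyl mercury IC5 and 693, 885 and 1194 in control (log2 difference -0.55 ± 0.098 (SE), adjusted p = 1.91e-05), with slight overlap. COL5A1, a type V chain, had 172, 203 and 232 with methyl mercury IC20/100 and 282, 295 and 533 in control, without overlap (log2 difference -0.67 ± 0.10 (SE), adjusted p = 9.16e-07). COL12A1 was called there too (log2 difference -1.09 ± 0.40 (SE), adjusted p = 0.0476), where leaving out any of 11 of the 16 libraries ended its call, with the highest adjusted p, 0.136, without control replicate 5. FBN2 had 3275, 3471 and 3850.1 with methyl mercury IC5 and 1149, 2461 and 2621 with IC20/100 (log2 difference 0.62 ± 0.068 (SE), adjusted p = 1.58e-10). The lowest value, 1149, was replicate 8, the library that stands apart, and without it FBN2 remained called, at an adjusted p of 6.85e-19.

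Whether a compound differed from the others was tested at IC5 as its difference from the mean of the other 4 compounds. That mean holds 3 compounds in DMSO for acrylamide and valproic acid, which were given in medium, and 2 for each of the compounds in DMSO, so compound and vehicle cannot be told apart in these differences. Valproic acid IC5 was higher in 19 members and lower in 2 (29.1% of all genes called, 15.7% higher and 13.5% lower), acrylamide IC5 in 13 and 12 (41%, 19.9% and 21.1%), fluoxetine IC5 in 6 and 3 (15.2%, 7.08% and 8.1%), methyl mercury IC5 in 3 and 16 (20.5%, 10.2% and 10.3%) and chlorpyrifos IC5 in 2 and 12 (6.89%, 3.45% and 3.44%). COL11A1 averaged 2492 with valproic acid IC5 and 631 over the other 4 (log2 difference 2.07 ± 0.074 (SE), adjusted p = 8.34e-38). The same gene averaged 344 with acrylamide IC5 and 1167 over the other 4 (log2 difference -1.52 ± 0.074 (SE), adjusted p = 4.2e-30). COL18A1 was 3.18-fold higher with valproic acid than the mean of the others (log2 difference 1.67 ± 0.065 (SE), adjusted p = 2.37e-35), and COL9A2 2.71-fold (log2 difference 1.44 ± 0.11 (SE), adjusted p = 9.19e-19). With acrylamide, ACTA2 stood above the mean of the others (log2 difference 0.83 ± 0.084 (SE), adjusted p = 1.24e-13) and COL4A6 below it (log2 difference -0.91 ± 0.060 (SE), adjusted p = 1.45e-22). ACTA2 and COL9A2 were lower than control with all 3 compounds in DMSO, and these values enter the mean of the others. Between the compounds in medium, ACTA2 averaged 148 ± 14.2 with acrylamide IC5 and 104 ± 17.8 with valproic acid IC5, and COL9A2 averaged 130.2 ± 46.97 with acrylamide IC5 and 644 ± 94.7 with valproic acid IC5 (SD, n = 8 each). COL24A1 and COL20A1 were called higher with valproic acid as well (log2 difference 1.17 ± 0.32 (SE), adjusted p = 0.00261, and log2 difference 1.06 ± 0.27 (SE), adjusted p = 0.00116). With methyl mercury IC5, COL2A1 averaged 602, against 1189 over the other 4, and COL3A1 averaged 88.8, against 178 over them (log2 difference -0.98 ± 0.11 (SE), adjusted p = 6.14e-12). With chlorpyrifos IC5, SPARC averaged 5545, against 8293 over the other 4 (log2 difference -0.59 ± 0.059 (SE), adjusted p = 2.33e-12), and with fluoxetine IC5 it averaged 9049.5, against 7417 over its other 4 (log2 difference 0.34 ± 0.059 (SE), adjusted p = 7.67e-06).

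Several collagen genes were uneven between technical replicates of 1 group. A library at 5 or more times the median of the other libraries of its group, and at 100 or more normalized counts, was found 60 times over 11 members. COL23A1, a transmembrane collagen, gave 24 of them, COL25A1, another transmembrane collagen found in neurons and in amyloid plaques, 10, and COL9A1 9. COL25A1 had 675 normalized counts in control replicate 3, where the median of the other 7 was 37.4, and 1051 in fluoxetine IC5 replicate 2, where it was 31.98. COL15A1, a multiplexin close to COL18A1, had 325 in valproic acid IC5 replicate 4, where the median of the others was 7.12. These jumps rest on many reads, 678 in the first case, and no exposure call was made for COL23A1, COL25A1, COL9A1 or COL15A1. For differentiation COL25A1 was called higher in control, with 24.96, 37.5 and 675 in control and 2.12, 11.1 and 41.1 in NPC, and COL9A1 lower, with 97.00, 493 and 1178 in control and 325, 1205 and 3370.1 in NPC.

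**Figure D5:**
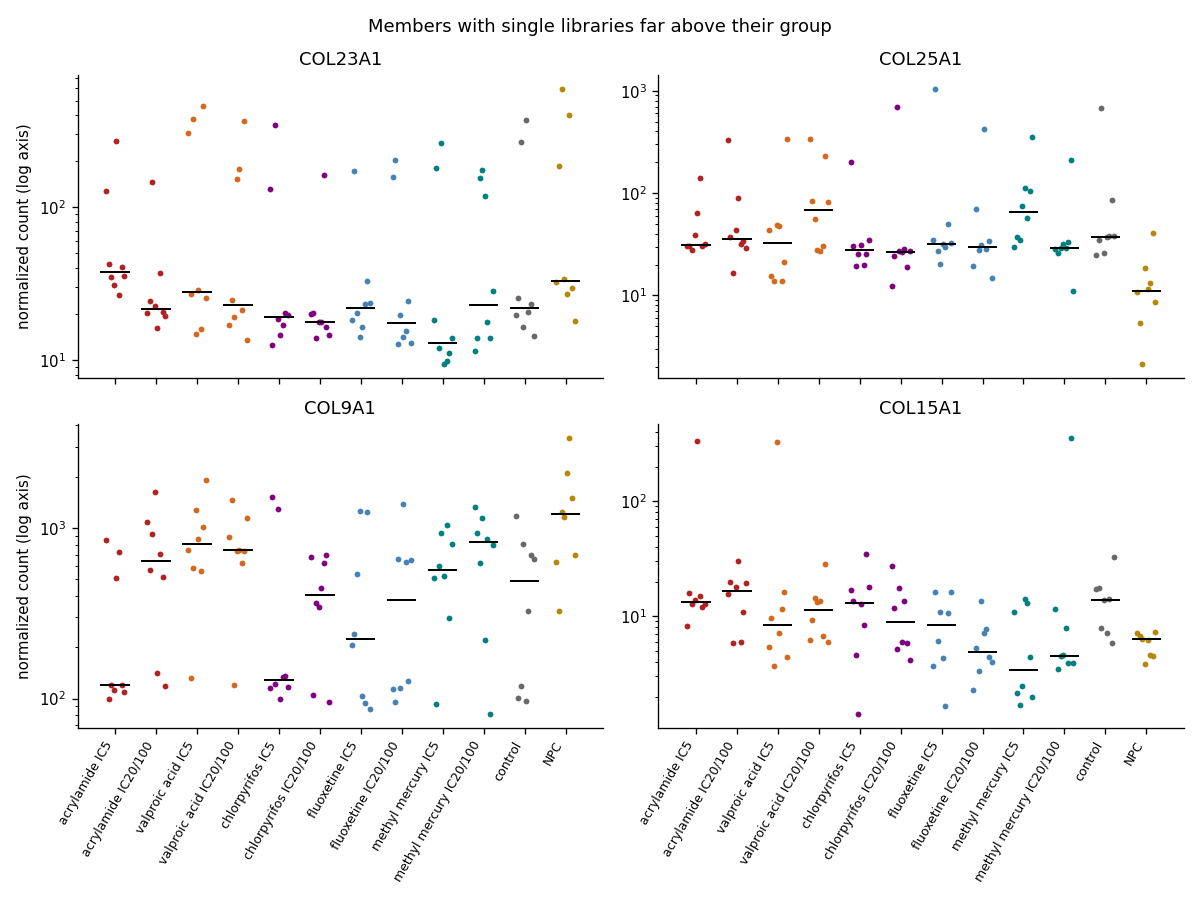
Normalized counts (log axis) of 4 members in every library of the 10 exposed groups, control and NPC, with a bar at each group's median. Points far above their group's bar are single libraries, such as COL25A1 at 1051 in fluoxetine IC5 replicate 2, and COL9A1 in control spans 97.0 to 1178.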

How the data were processed

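The submitters' processing notes name bcl2fastq, FastQC 0.11.8, MultiQC 1.0, Salmon 1.3.0, DESeq2 1.30.0 and the GRCh38 build, but neither an annotation release nor a strand setting. The deposited signal is the authors' gene count divided by 1 size factor per library: 100% of values were whole reads within 0.001 once the step of each library was found, and the reads recovered that way were used only for alternative tests. All 96 columns were matched to labelled samples.

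Gene names came from the gene table (58087 of 58434 IDs matched) and positions from GENCODE 29. The 8 technical replicates of a group were compared in 336 pairs, and none agreed within sampling noise (chi-square per degree of freedom at least 16.6). With limma 3.58.1 in R 4.3.3 a linear model of group and sequencing run (6 runs of 16 libraries) was fitted to log2(value + 2), with a variance trend, for genes with at least 10 in at least 8 libraries. One fit held the 16 control and NPC libraries (18063 genes) and another the 88 day 10 libraries (20136 genes). p-values were adjusted by Benjamini-Hochberg over all genes of a fit, two-sided, at 0.05. Alternatives used other pseudocounts, filters, scaling and samples, and edgeR 4.0.16 and DESeq2 1.42.0 on recovered reads. The model was tested on simulated data first.

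Members and companion lists were chosen with earlier results of these data known. Named were, per comparison, up to 8 rises and 8 falls of at least 1.5-fold among called members with a mean of at least 20, otherwise up to 4 with the smallest adjusted p, beside a fixed set of well-known members, up to 4 called genes per companion list, and the head-to-head pairs of type IV collagen. Other members are given so that each is accounted for. Leaving out single libraries, and the companion lists without the library that stands apart, were added after seeing the data.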

Additional observations from a re-analysis of the deposited data

Results flagged for a closer look

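A set of well-known members was examined in all groups of 8 libraries, and the other members named by rule only in the groups of the comparisons that named them. In each, the farthest library was set against the spread of the other 7 (the gap to the nearest library over the whole range, past Dixon's 95% critical value). This marked 33 of the 250 combinations of a member and a group examined (13.2%), where chance marks about 1 in 20. Combinations outside this choice are not counted, among them COL25A1 with fluoxetine IC5, COL12A1 and COL24A1 with acrylamide IC5 and others that held a library at 5 or more times the median of the rest. The ranges given are those of the other 7 libraries, in normalized counts. Acrylamide IC20/100 libraries stood apart for COL11A1 at 1038 in replicate 3 (others 708 to 854), COL4A2 at 5439.8 in replicate 4 (others 3880.5 to 4505), DCN at 67.7 in replicate 6 (others 18.6 to 31.7) and THBS2 at 376 in replicate 6 (others 105 to 226). Acrylamide IC5 libraries stood apart for COL5A3 at 46.8 in replicate 7 (others 20.6 to 31.4) and THBS2 at 356 in replicate 6 (others 50.9 to 67.3). Chlorpyrifos IC20/100 libraries stood apart for COL4A1 at 1895 in replicate 2 (others 884 to 1109) and COL9A2 at 401 in replicate 1 (others 226 to 297). Chlorpyrifos IC5 libraries stood apart for COL11A1 at 1137 in replicate 4 (others 613 to 738), COL9A3 at 45.4 in replicate 5 (others 14.9 to 28.7) and THBS1 at 153 in replicate 3 (others 14.3 to 41.6). Fluoxetine IC20/100 had COL1A1 at 149 in replicate 7 (others 58.1 to 94.8). Fluoxetine IC5 had COL9A2 at 199 in replicate 2 (others 284 to 345). Methyl mercury IC20/100 libraries stood apart for COL18A1 at 531 in replicate 8 (others 247 to 368) and FBN2 at 1149 in replicate 8 (others 2366 to 2621). Methyl mercury IC5 libraries stood apart for COL18A1 at 382 in replicate 7 (others 269.6 to 318), COL6A1 at 4084 in replicate 4 (others 4849.9 to 5474) and THBS1 at 207 in replicate 4 (others 7.93 to 92.4). Valproic acid IC20/100 had FBN2 at 3365 in replicate 4 (others 2907 to 3056). Valproic acid IC5 libraries stood apart for COL6A2 at 1006 in replicate 8 (others 386 to 629.8), FBN2 at 4755 in replicate 4 (others 4209 to 4373) and SPARC at 6300.4 in replicate 5 (others 6986 to 7579). Control libraries stood apart for BGN at 5.48 in replicate 2 (others 10.7 to 14.01), COL12A1 at 128 in replicate 5 (others 24.8 to 71.99), COL25A1 at 675 in replicate 3 (others 24.96 to 84.6), COL2A1 at 1194 in replicate 7 (others 693 to 922), COL5A1 at 533 in replicate 1 (others 282 to 342), COL6A2 at 365 in replicate 8 (others 118 to 209.8) and COL6A3 at 276 in replicate 2 (others 44.5 to 108). NPC libraries stood apart for COL25A1 at 41.1 in replicate 7 (others 2.12 to 18.3), COL7A1 at 1727 in replicate 8 (others 839 to 1237), TAGLN at 531 in replicate 7 (others 232 to 321) and THBS1 at 1159 in replicate 7 (others 514 to 713).

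For each compound, the 2 called members with the largest difference at IC5 from the mean of the other 4 compounds, among those averaging at least 20 normalized counts on either side, are given as log2 differences, in which compound and vehicle cannot be told apart. A member left out here for 1 compound can differ by more than one given for another. THBS1 stood at 2.04 ± 0.37 (SE, limma adjusted p = 3.91e-06) with acrylamide, -1.85 ± 0.37 (SE, limma adjusted p = 0.000252) with chlorpyrifos and -1.76 ± 0.37 (SE, limma adjusted p = 0.000167) with methyl mercury. COL11A1 stood at -1.52 ± 0.074 (SE, limma adjusted p = 4.2e-30) with acrylamide and 2.07 ± 0.074 (SE, limma adjusted p = 8.34e-38) with valproic acid, and COL6A2 at 1.95 ± 0.24 (SE, limma adjusted p = 4.2e-10) with valproic acid. COL5A3 stood at -0.99 ± 0.14 (SE, limma adjusted p = 9.29e-08) with methyl mercury. With fluoxetine, LUM stood at 0.95 ± 0.26 (SE, limma adjusted p = 0.00485) and THBS2 at 0.89 ± 0.19 (SE, limma adjusted p = 0.000282). COL16A1 stood at 1.28 ± 0.33 (SE, limma adjusted p = 0.00711) with chlorpyrifos, where without chlorpyrifos IC5 replicate 5 its adjusted p was 0.103.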

How the results depend on the processing

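No result changed direction under any alternative. Of 304 calls of a member refitted, 32 were lost without a filter on low values, 12 without the run term, 9 by edgeR, 8 by DESeq2, 3 at either other pseudocount and 0 with TMM scaling; 30 of 261 were lost with only the groups compared, 0 of 274 with a filter of at least 50, and 0 of 265 without methyl mercury IC20/100 replicate 8. Counts of members called moved by over 1.5 times in 4 comparisons, the cause of which was not tested. Methyl mercury IC20/100 against control had 5 with only the groups compared (13 as reported). Valproic acid IC20/100 against control (1 as reported) had 2 by DESeq2, 0 without a filter, 0 with only the groups compared and 2 without methyl mercury IC20/100 replicate 8. Chlorpyrifos IC5 against IC20/100 (0 as reported) had 5 by DESeq2 and 2 without that library, and methyl mercury IC5 against IC20/100 (1 as reported) had 2 by DESeq2 and 0 with only the groups compared.

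With each library left out in turn, the members called numbered 35 to 41 for control against NPC. Against control they numbered 22 to 25 (acrylamide IC5), 0 to 0 (acrylamide IC20/100), 13 to 15 (chlorpyrifos IC5), 13 to 16 (chlorpyrifos IC20/100), 7 to 12 (fluoxetine IC5), 12 to 15 (fluoxetine IC20/100), 10 to 13 (methyl mercury IC5), 11 to 14 (methyl mercury IC20/100) and 12 to 16 (valproic acid IC5), 0 to 2 (valproic acid IC20/100). For IC5 against IC20/100 they numbered 21 to 24 (acrylamide), 0 to 0 (chlorpyrifos), 9 to 14 (fluoxetine), 1 to 2 (methyl mercury) and 16 to 17 (valproic acid), where the 9 of fluoxetine came without fluoxetine IC5 replicate 7. For IC5 against the other compounds they numbered 22 to 28 (acrylamide), 13 to 15 (chlorpyrifos), 9 to 10 (fluoxetine), 16 to 20 (methyl mercury) and 19 to 23 (valproic acid). Replicate numbers were not used to pair the samples, since in no comparison was every same-numbered correlation over 0.1. This rule cannot exclude weaker pairing. For control against NPC, with run removed, the median correlation was 0.125 for same-numbered and 0.082 for other pairs. A replicate block in place of run lost 8 of 304 calls, with 39 members called for control against NPC and 12 for the fluoxetine concentrations, and moved no count by over 1.5 times. Without methyl mercury IC20/100 replicate 8, the TGF-beta list went to 4 up and 0 down for methyl mercury IC5 against IC20/100, where it was 1 and 1 with it.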
